A study of Mus musculus with 374 samples.

Results

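A set of 6 genes assigned to late neutrophils, Mmp8, Mmp9, Mmp25, Retnlg, Padi4 and Wfdc21, were followed by their symbols through 5 sorted blood cell populations of the mouse. They were chosen by name, for their place in late neutrophils and gelatinase granules, and not by a threshold on their level, and all 6 were found among the 19829 rows of mouse genes. The cells came from 1 C57BL/6 female, 10 to 13 weeks old, with no treatment or transgene given in the labels. From the marrow, 96 granulocytes were gated as Mac1+ Gr1+, 95 high-end progenitor/stem cells as Lin- Kit+ Sca1+, 96 erythroblasts as Ter119+ CD44+ with FSC-A mid/high, and 44 B lymphocytes as B220+ FSC-A low, and from the thymus 43 T lymphocytes were gated as CD3+ FSC-A low. Each of the 374 cells was sorted into its own well of a 384-well plate and tagged by CEL-seq2, which counts the 3' ends of transcripts by unique molecular identifiers (UMIs). Levels are given as counts per 1000000 UMIs on mouse genes (CPM), over the summed wells of a population unless a single well is named. Because each population is 1 sample from 1 mouse, no test between populations was possible, and all values in parentheses after a level, fold or share are exact 95% intervals for counting error alone. Where no UMI was counted, a floor of 3 counts is used and named as such.

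Neutrophils build their granules in waves, with primary granules in promyelocytes, specific granules in myelocytes and metamyelocytes, and gelatinase (tertiary) granules in band cells. Gelatinase granules are released readily and carry enzymes that cut collagen and basement membrane as the cell leaves the blood. Mmp8 encodes neutrophil collagenase, Mmp9 encodes gelatinase B, and Mmp25 encodes a metalloproteinase anchored to the leukocyte membrane. Padi4 encodes a peptidylarginine deiminase that citrullinates histones and takes part in the formation of neutrophil extracellular traps. Its product is not a granule protein. Retnlg encodes a secreted resistin-like protein, and Wfdc21 encodes a secreted protein with a WAP domain.

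In GENCODE M21 (GRCm38) the 6 protein-coding genes lie apart on 6 chromosomes. Mmp8 lies at chr9:7558456-7568485 on the forward strand, between Mmp10 and Mmp27. Mmp9 lies at chr2:164940780-164955850 on the forward strand, and Mmp25 at chr17:23628311-23645277 on the reverse strand. Retnlg lies at chr16:48872621-48874496 on the forward strand next to Retnla, another resistin-like gene. Padi4 lies at chr4:140745865-140774236 on the reverse strand between Padi6 and Padi3, and Wfdc21 at chr11:83746940-83752642 on the forward strand next to Wfdc18. None of the 6 shares a stretch of 50 bases of transcript with another gene of that annotation. The authors' genome build is not given in the sources used here, so these positions are only those of the annotation.

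A RefSeq promoter (GRCm38.p6) was matched for 4 of the 6 members, and the 250 bases before the start site are shown for Mmp8 (chr9:7558179-7558428, forward strand) and Retnlg (chr16:48872358-48872607, forward strand), which covaried across the granulocytes as described further on and held the C/EBP letters. Capitals mark the letters TTNNGNAA, a core of C/EBP motifs, and GAGGAAGT, a PU.1 motif, searched on both strands:
Mmp8 promoter: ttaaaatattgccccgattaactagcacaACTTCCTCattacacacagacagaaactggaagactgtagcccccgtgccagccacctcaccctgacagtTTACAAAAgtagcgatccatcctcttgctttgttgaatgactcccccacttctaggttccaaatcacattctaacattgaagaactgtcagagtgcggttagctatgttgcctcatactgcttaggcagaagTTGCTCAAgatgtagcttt
Retnlg promoter: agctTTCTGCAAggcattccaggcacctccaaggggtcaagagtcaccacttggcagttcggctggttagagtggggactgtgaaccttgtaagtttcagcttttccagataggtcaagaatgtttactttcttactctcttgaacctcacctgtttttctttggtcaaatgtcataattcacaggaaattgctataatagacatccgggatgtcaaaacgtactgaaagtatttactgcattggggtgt
With positions counted back from the start site, the Mmp8 window held TTNNGNAA at -151 and -19 and GAGGAAGT at -221, all on the opposite strand, and the Retnlg window held TTNNGNAA at -246 on its own strand. TATAAA was searched as well and stood in neither. Of the 4 matched promoters, 2 held TTNNGNAA and 1 held GAGGAAGT. Those of Mmp25 and Padi4 held neither, and Padi4 held TATAAA at -31. Of 32851 RefSeq promoter windows of this length, 36.8% held TTNNGNAA, 2.44% held GAGGAAGT and 12.4% held TATAAA. These are matches of letters only, and binding was not measured.

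The wells differed widely in depth. The median UMI count on mouse genes was 3880 in the granulocyte wells (8 to 22425), 7959 in the progenitor/stem cells (2003 to 24033), 6113.5 in the erythroblasts (466 to 20457), 3028.5 among B lymphocytes (485 to 8330) and 4347 among T lymphocytes (426 to 10874), and no cell barcode was named for more than 1 well. Each population was highest for its own marker list, and the granulocyte list (S100a8, S100a9, Ngp, Ltf, Camp and Lcn2) reached 137700 CPM in the granulocytes against 1389 to 4845 CPM elsewhere. One well labelled as a B lymphocyte, A8, went against its label, with 195 of its 4531 UMIs on the 6 members, 0 UMIs on 7 B lymphocyte markers and a Gr1 fluorescence of 15209 against a B lymphocyte median of 26. The B lymphocyte values are therefore given with and without it. Within the granulocyte gate 13 of 96 wells held at least 5 UMIs on the monocyte genes Csf1r, Ccr2, F13a1 and Fn1, with 7 to 117 each and a median of 68, whereas the other 83 held at most 3. Of the 10 monocyte markers listed, 9 were analysed, and they summed to 11289 CPM in those 13 wells and to 138 CPM in the other 83. The genes that chose the wells are among these 9, so this contrast was in part set by the choice. Results across granulocytes are given with and without the 13 wells.

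All 6 genes were highest in the granulocytes. Mmp8, Mmp9, Retnlg, Padi4 and Wfdc21 were at least 4-fold higher there than in each of the other 4 populations, and Mmp25 was higher with too few UMIs to place the fold. Read against the background, 5 of 6 members compare with 5.69% of the 3570 genes that had at least 20 UMIs in every pair of populations. The members were named as neutrophil genes with earlier results of these data known, so this comparison is a description only. At 8-fold the members were Mmp8, Mmp9 and Wfdc21, 3 of 6 against 2.32% of those genes. By pair, all 6 passed 4-fold over the progenitor/stem cells, where 5.64% of genes did, and over the erythroblasts, where 19.9% did. Over the B lymphocytes 5 passed beside 9.38% of genes, and over the T lymphocytes 5 beside 10.5%. Mmp25 entered each of these pairs through its 21 granulocyte UMIs alone. With sums under 3 UMIs set to 3, its fold could not exceed 2.36 over the B lymphocytes and 3.48 over the T lymphocytes. It could thus not pass 4-fold in these 2 pairs. The median log2 ratio of the members was 5.03 over the progenitor/stem cells, 6.28 over the erythroblasts, 3.33 over the B lymphocytes and 4.69 over the T lymphocytes, while over all genes compared the medians were -0.95, -0.29, -0.18 and -0.48.

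**Figure D1:**
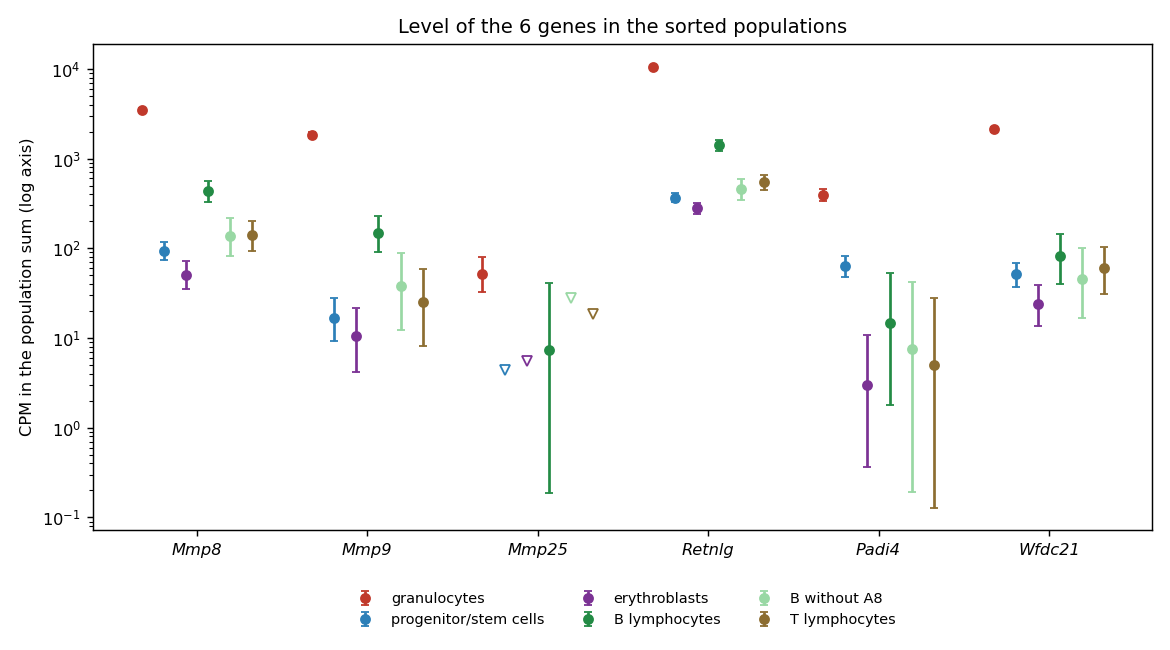
Level of each of the 6 genes in the 5 populations, in CPM of the population sum on a log axis, with exact 95% Poisson intervals for counting error. Open triangles mark the upper limit where no UMI was counted. The granulocytes (red) lie highest for every gene, from 52.0 CPM for Mmp25 to 10416 CPM for Retnlg, and the B lymphocytes are lower without well A8 for the 5 genes that still have a UMI there.

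The collagenase and gelatinase genes were granulocyte genes with a long range between wells. Mmp8 gave 0, 7 and 59 UMIs in the lowest, median and highest granulocyte well, 1417 in all, which is 3512 CPM (3331 to 3699). In the progenitor/stem cells it gave 0 to 10 UMIs a well with a median of 0, 78 in all, which is 93.4 CPM (73.9 to 117). The well ranges of these populations overlapped at the low end, and the fold was 37.6 (29.9 to 47.8). Mmp8 stood 68.9-fold (49.0 to 99.8) over the erythroblasts with 34 UMIs and 25.1-fold (17.3 to 38.0) over the T lymphocytes with 28. Over the B lymphocytes the fold was 8.08 (6.23 to 10.7), and without well A8, which held 41 of the 59 B lymphocyte UMIs, it was 25.6 (16.1 to 43.3).

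Mmp9 ranged from 0 through a median of 6.5 to 23 UMIs a granulocyte well, 745 in all, or 1846 CPM (1716 to 1984). No other population had a median above 0, and the progenitor/stem cells held 14 UMIs in all, the erythroblasts 7, the T lymphocytes 5 and the B lymphocytes 20, of which well A8 held 15. The granulocytes stood 176-fold (84.9 to 439) over the erythroblasts, with a wide interval, 110-fold (65.2 to 202) over the progenitor/stem cells and 74.0-fold (31.6 to 229) over the T lymphocytes. The fold over the B lymphocytes moved from 12.5 (8.06 to 20.6) to 48.5 (20.7 to 150) without well A8.

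Mmp25 was sparse. It gave 21 UMIs in 18 of 96 granulocyte wells, at most 3 in a well, which is 52.0 CPM (32.2 to 79.6). The single UMI elsewhere was in well A8, and the ratio to the B lymphocytes with that well was 7.07 (1.14 to 292). Against a floor of 3 UMIs for a population with none, Mmp25 was at least 14.5-fold higher than in the progenitor/stem cells, at least 11.6-fold higher than in the erythroblasts and at least 3.48-fold higher than in the T lymphocytes. These bounds leave out the counting error of the 21 granulocyte UMIs, and the exact intervals of the folds began lower, at 10.8, 8.60 and 2.59. Finding 0 of 95 progenitor/stem cell wells with a UMI allows a share of wells of up to 3.16% by that floor, and of up to 3.81% by the exact interval.

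The other metalloproteinases were nearly silent in the granulocytes, and among their inhibitors Timp2 was not. Of 18 other family members listed, 7 were analysed, and in the granulocytes only Mmp27 with 3 UMIs and Mmp2 with 1 were detected, at 9.91 CPM together (2.70 to 25.4). The progenitor/stem cells held 24 UMIs on these genes, or 28.7 CPM (18.4 to 42.8), with 12 on Mmp2 and 7 on Mmp15. Timp2, a tissue inhibitor of metalloproteinases, was highest in the granulocytes and above Mmp25 there. It gave 77 UMIs in 49 granulocyte wells (191 CPM), 25 in progenitor/stem cells (29.9 CPM) and 18 in T lymphocytes (89.8 CPM), and Timp3 and Reck gave none in the granulocytes.

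Padi4 had the smallest fold over the progenitor/stem cells among the 5 members with UMIs there. It gave 0, 1 and 6 UMIs in the lowest, median and highest granulocyte well, 160 in all, or 397 CPM (337 to 463). In the progenitor/stem cells it gave 53 UMIs spread over 39 of 95 wells with at most 3 in a well, or 63.5 CPM (47.6 to 83.0), so that no single well carried the sum. Retnlg and Mmp8 were found in more of these wells, 87 and 44, and Wfdc21 in 31. The erythroblasts held 2 UMIs, the B lymphocytes 2 and the T lymphocytes 1. The granulocyte level was 6.25-fold (4.55 to 8.69) that of the progenitor/stem cells, 132-fold (36.0 to 1101) that of the erythroblasts, 26.9-fold (7.33 to 224) that of the B lymphocytes and 79.5-fold (14.1 to 3158) that of the T lymphocytes.

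Counted per well without scaling to depth, Padi4 in the progenitor/stem cells was 33.5% (25.1 to 43.8) of its granulocyte mean, whereas the other 5 members were between 0% and 7.38% there. In the erythroblasts and T lymphocytes Padi4 was at 1.25% (0.151 to 4.52) and 1.40% (0.0353 to 7.77). The other Padi genes analysed, Padi1 and Padi3, gave 0 and 1 UMI in granulocytes and 3 and 0 in progenitor/stem cells. The deiminase signal in both populations was therefore carried by Padi4 among the 3 Padi genes analysed.

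Retnlg was detected in 93 of 96 granulocyte wells. It gave 0, 28.5 and 167 UMIs in the lowest, median and highest granulocyte well, 4203 in all, or 10416 CPM (10104 to 10736). In the other populations the median well held 1 or 2 UMIs, and the progenitor/stem cells were at 368 CPM (328 to 411), the erythroblasts at 280 (242 to 324), the T lymphocytes at 544 (447 to 656) and the B lymphocytes at 1414 (1221 to 1629), or 457 (349 to 588) without well A8. The progenitor/stem cell well M14 held 40 of the 307 Retnlg UMIs and 10 of the 78 Mmp8 UMIs of its population. Among the T lymphocytes, 1 well held 26 of the 109 Retnlg UMIs. The fold of the granulocytes was 28.3 (25.2 to 31.9) over the progenitor/stem cells, 37.1 (32.1 to 43.2) over the erythroblasts, 19.2 (15.8 to 23.4) over the T lymphocytes and 7.37 (6.37 to 8.56) over the B lymphocytes, or 22.8 (17.7 to 29.9) without well A8. Its 3 relatives were at the edge of detection in the granulocytes, with 14 UMIs on Retnlb, 6 on Retnla and 1 on Retn, and gave none in any other population.

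Wfdc21 gave 0, 6 and 41 UMIs in the lowest, median and highest granulocyte well, 853 in all, or 2114 CPM (1975 to 2261). The median well held none in every other population, and the progenitor/stem cells held 43 UMIs in all, the erythroblasts 16, the T lymphocytes 12 and the B lymphocytes 11. Its folds were 41.0 (30.2 to 57.1), 88.1 (53.9 to 155), 35.3 (20.1 to 68.6) and 26.1 (14.5 to 52.5) in that order, the last of which was 46.3 (21.2 to 126) without well A8. Of the WAP domain relatives, Slpi, a leukocyte protease inhibitor, gave 124 UMIs in the granulocytes and at most 1 in each other population. Wfdc17 was at 84.3 CPM in granulocytes and 67.1 CPM in progenitor/stem cells, from 34 and 56 UMIs, and Wfdc18, the neighbour of Wfdc21, gave 0 and 6.

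Retnlg carried most of the 6-gene sum. Of 7399 member UMIs in the granulocytes, 56.8% (55.7 to 57.9) were Retnlg, 19.2% Mmp8, 11.5% Wfdc21, 10.1% (9.39 to 10.8) Mmp9, 2.16% (1.84 to 2.52) Padi4 and 0.284% Mmp25. The make-up differed in the erythroblasts, T lymphocytes and progenitor/stem cells. Erythroblasts held 246 member UMIs, 76.0% (70.2 to 81.2) of them Retnlg, and T lymphocytes 155, 70.3% (62.5 to 77.4) of them Retnlg. Mmp9 was 2.85% (1.15 to 5.77) and 3.23% (1.06 to 7.37) of the member UMIs in these populations. Of the 155 in the T lymphocytes, 1 well held 36. In the progenitor/stem cells Padi4 made up 10.7% (8.12 to 13.8) of 495 member UMIs and Mmp9 2.83% (1.55 to 4.70), both outside the granulocyte intervals. In the B lymphocytes without well A8, which held 90 member UMIs, Retnlg made up 66.7% (55.9 to 76.3), Mmp8 20.0% and Mmp9 5.56% (1.83 to 12.5), with intervals that took in the granulocyte shares.

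Low counts of strong granulocyte genes were present in all populations. Per well, S100a8 in the progenitor/stem cells was 2.13% (1.92 to 2.35) of its granulocyte mean, Ngp 2.14% (1.79 to 2.54) and Camp 2.63% (2.13 to 3.21), with S100a9 between them. Mmp9 was at 1.90% (1.04 to 3.19) there, below these 4 values with an interval that took them in, whereas Retnlg was at 7.38% (6.58 to 8.25), Mmp8 at 5.56% (4.40 to 6.94) and Wfdc21 at 5.09% (3.69 to 6.86). In the erythroblasts S100a8 was at 1.61% (1.43 to 1.81), Retnlg at 4.45% (3.83 to 5.13) and Mmp8 at 2.40% (1.66 to 3.35). Whether the UMIs outside the granulocytes were made in those cells was not tested.

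Detection was compared after each well with at least 1000 UMIs was thinned to 1000. In 94 granulocyte wells a UMI was then found for Retnlg in 76.6% (66.7 to 84.7), for Mmp8 in 74.5% (64.4 to 82.9), for Mmp9 in 73.4% (63.3 to 82.0), for Wfdc21 in 71.3% (61.0 to 80.1), for Padi4 in 36.2% (26.5 to 46.7) and for Mmp25 in 3.19% (0.663 to 9.04). Before thinning, over all 96 wells, these shares were 96.9%, 87.5%, 83.3%, 80.2%, 69.8% and 18.75%. The lymphocytes and erythroblasts are not known for these genes and are given at the same depth. There Mmp9 was found in 1.05% to 4.65% of wells, Wfdc21 in 2.11% to 9.30%, Mmp8 in 4.21% to 18.6% and Retnlg in 26.3% to 35.7%, well A8 included, and Padi4 in none. At 2000 UMIs a well Padi4 was found in 2 of 33 B lymphocyte wells, or 6.06% (0.743 to 20.2), 1 of them A8.

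The progenitor/stem cells lay near those shares for most members. Retnlg was found in 34.7% (25.3 to 45.2) of their thinned wells, Mmp8 in 13.7% (7.49 to 22.3), Wfdc21 in 3.16% (0.656 to 8.95) and Mmp9 in 1.05% (0.0266 to 5.73), all within the range of the lymphocytes and erythroblasts. Padi4 was found in 7.37% (3.01 to 14.6) of them at both depths. At 1000 UMIs it was found in 0 of 95 erythroblast wells, which allows up to 3.16% by a floor of 3 wells and 3.81% by the exact interval, and in 0 of 42 T lymphocyte wells, which allows up to 7.14% and 8.41%. After thinning, the Padi4 interval of the progenitor/stem cells thus overlapped those of the erythroblasts and lymphocytes, though not that of the granulocytes. The unthinned sums differed more. There the lower limit for Padi4 among the progenitor/stem cells was 47.6 CPM. The upper limits were below it for erythroblasts and T lymphocytes, at 10.8 and 27.8 CPM. For B lymphocytes the upper limit was 53.2 CPM, or 42.4 without well A8. Taking the members together, 54 of the thinned granulocyte wells held 4 or more of the 6 genes, and so did 1 of 43 B lymphocyte wells, which was A8. No thinned progenitor/stem cell, erythroblast or T lymphocyte well did.

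Between single granulocytes the levels spread over more than an order of magnitude. Among the 94 wells with at least 1000 UMIs, Mmp8 ran from 0 through a median of 2686 to 16236 CPM, with a lower quartile of 594 and an upper quartile of 6633. Retnlg ran from 0 through 10555 to 44488 CPM with quartiles of 732 and 22746, and Wfdc21 from 0 through 1761 to 6757 with quartiles of 521 and 3148. Mmp9 was tighter, with a median of 2295 and quartiles of 1031 and 3150 CPM. The 6-gene sum ran from 271 through 19508 to 56693 CPM.

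The 13 wells with monocyte transcripts formed the low end of that sum. Their 6-gene level lay between 271 and 1710 CPM with a median of 638, and that of the other 81 wells with at least 1000 UMIs between 2297 and 56693 with a median of 24804, so the groups did not overlap. By gene, Mmp9 was at 21.8 CPM (2.64 to 78.6) in the 13 wells and 2384 CPM (2216 to 2562) in the other 83, and Retnlg at 348 (238 to 492) and 13384 (12981 to 13796). Mmp8 was at 272 (176 to 402) and 4467 (4235 to 4708), Wfdc21 at 152 (83.3 to 256) and 2692 (2513 to 2881), and Padi4 at 43.5 (11.9 to 111) and 501 (425 to 586). Every one of the 13 wells held a Retnlg UMI, and the erythroblasts were at 280 CPM.

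**Figure D2:**
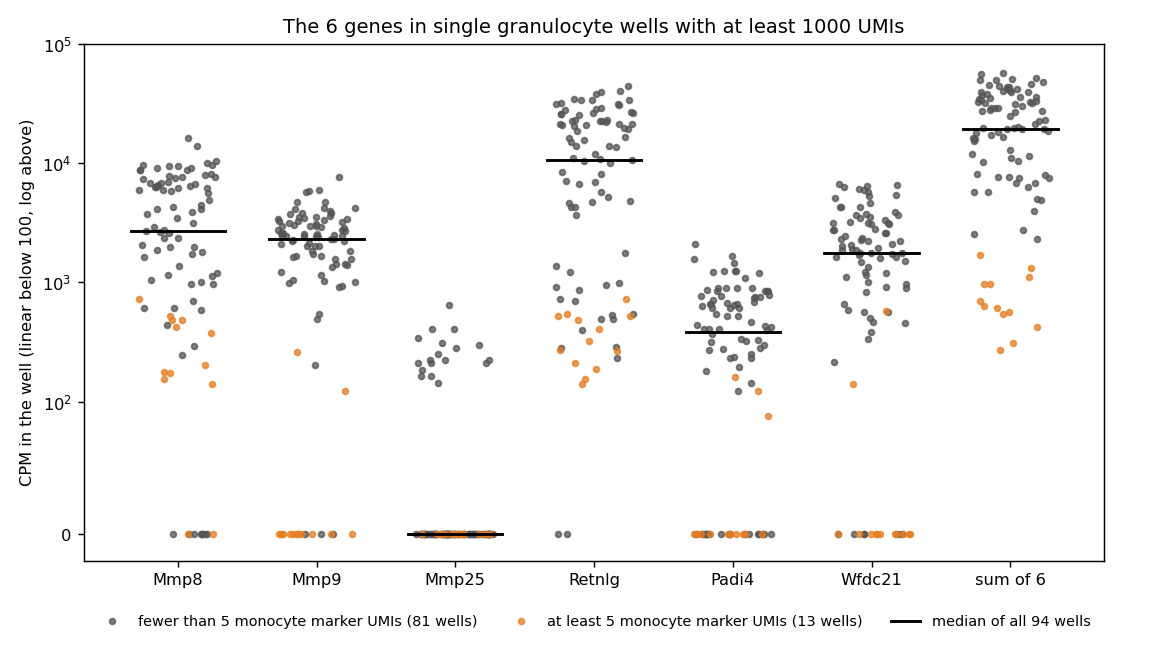
CPM of each of the 6 genes and of their sum in the 94 granulocyte wells with at least 1000 UMIs, 1 point a well, linear below 100 CPM and log above. Wells with at least 5 monocyte marker UMIs (orange) lie at the bottom of the sum, at 271 to 1710 CPM, and the other wells (grey) at 2297 to 56693 CPM. Black lines mark the median of all 94 wells.

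The plate rows that held the granulocytes differed. The 6-gene level was 20899 CPM (19962 to 21870) in row G, 22900 (21863 to 23975) in row H, 17473 (16727 to 18244) in row I and 14118 (13444 to 14818) in row J, each with 24 wells. Row J also held 6 of the 13 wells with monocyte transcripts, row I 3 and rows G and H 2 each. Without those wells the level was 23635 CPM (22573 to 24734) in row G, 25641 (24477 to 26847) in row H, 23518 (22505 to 24564) in row I and 21309 (20282 to 22375) in row J, so the rows lay closer together and row J remained the lowest. As the median of single wells, row G was then the lowest at 19508 CPM, followed by row J at 23850, row H at 28049 and row I at 30321.

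Across the granulocyte wells Mmp8, Mmp9 and Retnlg formed a trio. Over the 94 wells the Spearman correlation of CPM was 0.72 between Mmp9 and Retnlg, 0.67 between Mmp8 and Mmp9 and 0.64 between Mmp8 and Retnlg. The wells share 1 plate, 1 mouse and their own UMI totals as denominators, so these are descriptions and not tests. Over all 15 pairs of members the median was 0.34, and the lowest was 0.07, between Retnlg and Wfdc21. Without the 13 wells the trio kept 0.59, 0.52 and 0.50 in the same order, the median of the pairs was 0.18, and Retnlg with Wfdc21 turned to -0.29. At 1000 UMIs a well, 56 of 94 wells held both Retnlg and Wfdc21, 16 held only Retnlg, 11 only Wfdc21 and 11 neither.

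Against the summed CPM of the other 5 members, Mmp9 reached 0.75 and Mmp8 0.69, followed by Retnlg at 0.59, Padi4 at 0.42, Mmp25 at 0.30 and Wfdc21 at 0.19. For every member but Retnlg, that sum is mostly Retnlg. The pair of Wfdc21 with Retnlg was at 0.07, and its pairs with the other members ran from 0.14 to 0.37. Without the 13 wells those other pairs ran from -0.09 to 0.18. For scale, the correlation with the summed members was taken over 427 other genes with at least 100 granulocyte UMIs, in all 94 wells. It had a median near 0.06 and a 95th percentile of 0.45 for the sum that leaves out Mmp9. None of those genes lay above Mmp9, 1 lay above Mmp8 and 5 above Retnlg, but 29 lay above Padi4 and 129 above Wfdc21. Mmp25, with 21 UMIs, is too sparse for its value to be read. Without the 13 wells, the values were 0.62 for Mmp9, 0.56 for Mmp8, 0.41 for Retnlg, 0.22 for Padi4 and -0.18 for Wfdc21. Within single plate rows Mmp9 stayed between 0.64 and 0.85, Mmp8 between 0.50 and 0.75, and Retnlg between 0.38 and 0.81. With the wells thinned to 1000 UMIs, Mmp9 was at 0.54, Mmp8 at 0.66 and Retnlg at 0.53.

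**Figure D3:**
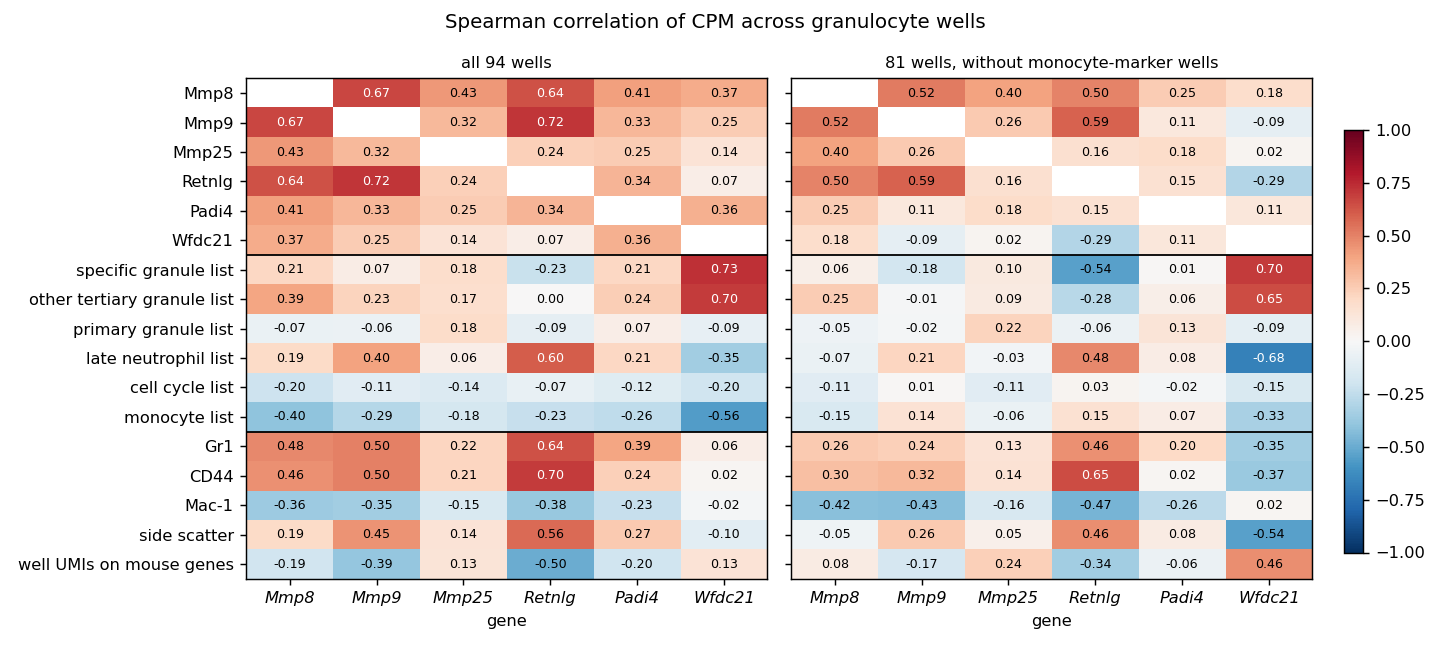
Spearman correlation of CPM between the members, with 6 gene lists and with the index sort values and UMI total of the well, over 94 granulocyte wells (left) and the 81 without monocyte transcripts (right). Red is positive and blue negative. Mmp8, Mmp9 and Retnlg are red with each other in both panels, at 0.64 to 0.72 on the left and 0.50 to 0.59 on the right, and Wfdc21 is red with the specific granule list, at 0.73 and 0.70.

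The granule lists split Wfdc21 from Retnlg. The specific granule list held 6 genes for proteins of that earlier wave, lactoferrin (Ltf), cathelicidin (Camp), Ngp, lipocalin 2 (Lcn2), Chil3 and Cd177, and the late neutrophil list 10 genes such as the chemokine receptor Cxcr2, the G-CSF receptor Csf3r, Il1b and Ccl6. Wfdc21 correlated at 0.73 with the specific granule list and at -0.35 with the late neutrophil list. Retnlg did the reverse, at -0.23 and 0.60. Mmp8 stood between them at 0.21 and 0.19, Mmp9 at 0.07 and 0.40 and Padi4 at 0.21 and 0.21. In this respect Wfdc21 went against the label of a late gene shared by the set.

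That split was wider without the 13 wells, where Wfdc21 was at 0.70 and -0.68 with the specific granule and late neutrophil lists and Retnlg at -0.54 and 0.48. It did not extend to the other members in those wells. There Mmp8 was at 0.06 and -0.07, Mmp9 at -0.18 and 0.21 and Padi4 at 0.01 and 0.08. For the sum of the 6 genes, which is mostly Retnlg, the correlation with the late neutrophil list was 0.45, and it was 0.06 for the sum without Retnlg. With the specific granule list the sum had 0.0024 and the sum without Retnlg 0.43. Depth moved with these values as well. Retnlg correlated at -0.50 with the UMI total of the well and Wfdc21 at 0.13, or at -0.34 and 0.46 without the 13 wells, and the part of depth in the split was not tested.

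**Figure D4:**
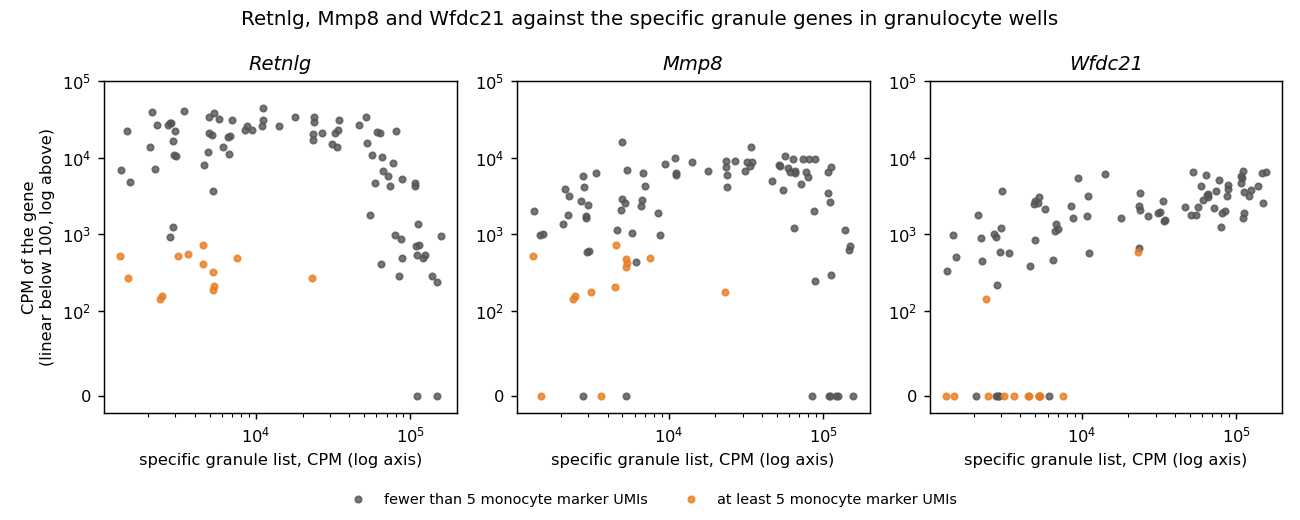
CPM of Retnlg, Mmp8 and Wfdc21 in single granulocyte wells against the summed CPM of 6 specific granule genes in the same well, with a log horizontal axis and a vertical axis that is linear below 100 CPM. Wfdc21 is higher in wells with more of the specific granule genes (Spearman 0.73), and Retnlg is low in the wells richest in them (-0.23, and -0.54 without the 13 orange wells).

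Other granule genes followed the members between populations. Of 18 other tertiary granule genes, such as Itgam and Itgb2 (the chains of Mac-1), Cybb and Cyba (the oxidase cytochrome), Hp and Fpr1, 15 had enough UMIs to compare, and 12 of the 15 were at least 4-fold higher in granulocytes than in each other population. Itgb2, Cyba and Timp2 were the exceptions. All 6 specific granule genes passed, 6 of the 8 late neutrophil genes compared, and 1 of the 3 primary granule genes, Elane, beside 5.69% of all genes compared. Of the monocyte list, 5 of 8 genes passed as well. Leaving out the 13 wells, where 7.53% of 2881 genes passed, the members passing were again Mmp8, Mmp9, Retnlg, Padi4 and Wfdc21, and 12 of 15 other tertiary granule genes, 6 of 6 specific granule genes and 7 of 8 late neutrophil genes passed. No primary granule gene then had enough UMIs to compare, and of the monocyte list 1 gene did and it did not pass. Of 142 Elane UMIs in the granulocytes, 128 were in 1 of the 13 wells, I13. The other tertiary granule list correlated at 0.70 with Wfdc21, at 0.39 with Mmp8 and at 0.0018 with Retnlg across the granulocyte wells.

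Of all genes with at least 100 UMIs, those most like the 6-gene sum across the granulocytes were S100a11 at 0.67, Lcp1 at 0.62, Gda at 0.62, Lilr4b at 0.61, Grina at 0.60, S100a6 at 0.58, Prr13 at 0.52, Dhrs7 at 0.52, S100a9 at 0.52 and Fpr1 at 0.50. The median over 427 genes was 0.06, with 5th and 95th percentiles of -0.45 and 0.45. S100a11 and S100a6 encode calcium-binding S100 proteins, Lcp1 the actin bundler L-plastin and Fpr1 a receptor for formyl peptides. Least like the sum were Ccr2 at -0.59, Rps13-ps2 at -0.58, F13a1 at -0.57, Chil3 at -0.56 and Crip1 at -0.54. Ccr2 and F13a1 are monocyte genes that chose the 13 wells, and without those wells they were at -0.15 and -0.14, while Chil3, a specific granule gene, stayed at -0.54 and was then the lowest of all. S100a11 was again the highest, at 0.51, and S100a9 was in the 59th place, at 0.25. The 427 genes then had a median of 0.06, with 5th and 95th percentiles of -0.26 and 0.35.

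Surface staining recorded at the sort gave a readout outside the transcripts. Gr1 fluorescence correlated at 0.60 with the 6-gene sum and CD44 at 0.66, side scatter at 0.49, Mac-1 at -0.37 and forward scatter at -0.30, while sort time was at -0.07. Retnlg was highest among the members, at 0.64 with Gr1 and 0.70 with CD44, and Wfdc21 was at 0.06 and 0.02. Without the 13 wells, the 6-gene sum was at 0.39 with Gr1, 0.56 with CD44 and 0.31 with side scatter. With Mac-1 it was then at -0.49, and with forward scatter at -0.21. In those wells CD44 kept 0.65 with Retnlg and Gr1 0.46, and both turned negative with Wfdc21, at -0.37 and -0.35. Mmp8 was there at 0.26 with Gr1 and 0.30 with CD44, and Mmp9 at 0.24 and 0.32.

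When the granulocyte wells were cut into 3 sets of 32 by Gr1 fluorescence, the 6-gene level was 5270 CPM in the lowest, 28548 in the middle and 30685 in the highest set. Single wells ran from 271 through 3954 to 33051 CPM in the lowest and from 5764 through 31756 to 56693 in the highest, so the sets overlapped. The fold of highest over lowest was 5.82 (5.42 to 6.26). All 13 wells with monocyte transcripts were in the lowest set, and the median depth was 5431.5 UMIs in the lowest and 3094 in the highest. Without the 13 wells the fold was 1.99 (1.88 to 2.12), from 14483 to 28872 CPM, and 1.62 as a ratio of mean well CPM.

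By gene, the fold across Gr1 was 14.0 (12.3 to 16.0) for Retnlg, 5.18 (4.41 to 6.11) for Mmp8, 4.43 (3.58 to 5.52) for Mmp9, 2.63 (1.74 to 4.02) for Padi4 and 1.09 (0.914 to 1.29) for Wfdc21. As a ratio of mean well CPM, which gives each well the same weight, it was lower, at 8.22 for Retnlg, 4.06 for Mmp8, 3.33 for Mmp9, 2.33 for Padi4 and 0.931 for Wfdc21. Without the 13 wells these 5 genes kept their order, at 2.78 (2.55 to 3.04), 2.06 (1.80 to 2.37), 1.78 (1.46 to 2.16), 1.53 (1.01 to 2.32) and 0.579 (0.481 to 0.695). As ratios of mean well CPM they were then at 1.98, 1.71, 1.52, 1.40 and 0.578. The specific granule list was lower in the Gr1-high wells, with a ratio of 0.430 (0.411 to 0.449), or 0.296 (0.282 to 0.310) without the 13 wells. The late neutrophil list had a ratio of 4.44 (3.91 to 5.06), or 3.17 (2.77 to 3.63). As ratios of mean well CPM without the 13 wells, the specific granule list was at 0.262 and the late neutrophil list at 2.28. With those wells left out, Wfdc21 was thus below 1, as the specific granule list was, and Retnlg, Mmp8, Mmp9 and Padi4 were above 1, as the late neutrophil list was.

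**Figure D5:**
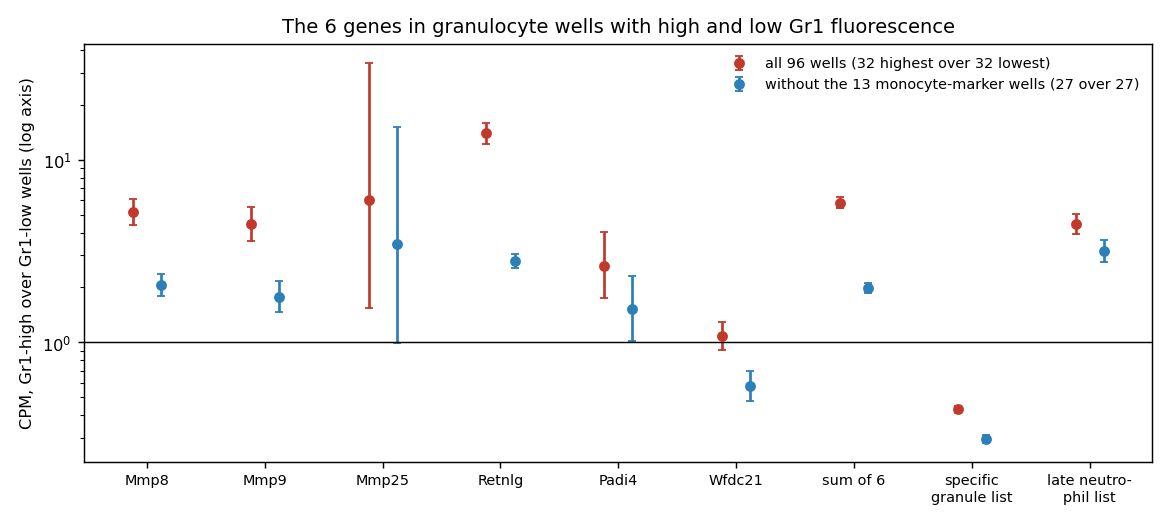
Ratio of the summed CPM in the 32 granulocyte wells with the highest over the 32 with the lowest Gr1 fluorescence, on a log axis, with exact 95% intervals for counting error, for all wells (red) and, with 27 over 27, without the 13 wells with monocyte transcripts (blue). Retnlg has the widest change among the single genes with narrow intervals, 14.0 in red and 2.78 in blue, and Wfdc21 lies at 1.09 and 0.579.

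Cutting by CD44 fluorescence gave a similar picture. Retnlg was 14.6-fold (12.6 to 17.0) higher in the highest than in the lowest set of 32, Mmp8 3.47-fold (2.96 to 4.09), Mmp9 3.27-fold (2.62 to 4.10) and Padi4 1.95-fold (1.26 to 3.07), while the ratio for Wfdc21 was 0.791 (0.662 to 0.943). The lowest set held 12 of the 13 wells with monocyte transcripts and the highest 1. Without them the ratio was 8.50 (7.57 to 9.58) for Retnlg, 2.15 (1.87 to 2.49) for Mmp8, 2.06 (1.69 to 2.53) for Mmp9, 1.28 (0.834 to 1.95) for Padi4 and 0.543 (0.451 to 0.652) for Wfdc21. As ratios of mean well CPM these were 5.93, 1.91, 1.91, 1.18 and 0.550 in the same order. Gr1 and CD44 were stained on the same cells, so these cuts are not separate samples.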

How the data were processed

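Per the labels, single cells were index-sorted into wells, and the reads were processed by the authors with scPipe, which as described by them aligns reads (Rsubread unless another aligner is set), assigns them to exons, demultiplexes designed barcodes and collapses UMIs. What they deposited are UMI counts, whole numbers for each gene in each well, not normalized by the authors. Genome build, annotation and strand setting were not given in the sources used here. Of 383 columns, 9 that match no labelled cell were not used. Symbols were matched for 19755 gene IDs, and 4 rows with a shared symbol were left out. Each well received 1 sorted cell, no doublet caller was run, and sums used every labelled well.

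Counts were summed per population and scaled to CPM. For calls, genes needed 20 UMIs in a pair of populations, sums under 3 UMIs were set to 3, and the fold was 4. Correlations used wells with at least 1000 UMIs. Intervals (95%) are exact Poisson, binomial or conditional binomial. The members, the lists and the comparisons were chosen with earlier results of these data known. Named genes are the members, the listed genes and the 10 most and 5 least alike the 6-gene sum. Alternatives numbered 26 at the start and 9 chosen after seeing the data, among them leaving out wells with monocyte transcripts. The interval and correlation steps were tested on simulated data. Python 3.11.15, numpy 2.4.6, pandas 2.3.3 and scipy 1.17.1 were used, with R 4.3.3, scran 1.30.0, edgeR 4.0.16 and DESeq2 1.42.0 for size factors only.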

Additional observations from a re-analysis of the deposited data

How the results depend on the processing

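With 1 mouse there was no test. No paired analysis was possible because the results come from no test. Of 125 values under alternatives, 72 stayed within the counting interval, within 0.1 of a correlation, within 10 points of a median share or within 1.5 times a count. The same 5 members passed 4-fold with TMM factors, DESeq2 size factors, the mean of well CPM, no UMI minimum, without well A8, without the 13 wells with monocyte transcripts and in wells with at least 1000 UMIs. Without the 13 wells 7.53% of all genes compared passed as well. At 8-fold 3 members passed, beside 2.32% of genes, and at 2-fold 6 did. The share over all genes was not counted at 2-fold or under the other settings, so those counts have no background. Compared with CPM, TMM factors shift every log2 ratio of the granulocytes by 0.77 over the progenitor/stem cells, -0.09 over the erythroblasts, 0.66 over the B lymphocytes and 0.75 over the T lymphocytes. The 6-gene level of 18337 CPM became 21680 as the mean of well CPM, 21930 without the UMIs of Gm42418, 23350 with scran size factors and 23490 without the 13 wells. The median correlation of a member with the other 5, 0.50, was 0.39 at 1000 UMIs a well, 0.37 in plate row G and 0.32 without the 13 wells. For the specific granule list, 0.0024 became 0.15 as Pearson's r of log2(CPM + 100), -0.11 in row I, 0.16 in row J, -0.33 without the 13 wells, 0.43 without Retnlg and 0.26 with mean ranks. For the primary granule list, -0.11 became -0.25 in row H and -0.0090 in row J. For the late neutrophil list, 0.45 became 0.35 at 1000 UMIs, 0.21, 0.19, 0.57 and 0.67 in rows G to J, 0.29 without the 13 wells, 0.057 without Retnlg and 0.23 with mean ranks. The Gr1 fold of 5.82 was 2.96 between 48 high and 48 low wells, 4.38 as the mean of well CPM and 1.99 without the 13 wells. The cause of these moves was not tested.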

Other observations

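The granulocyte gate held few transcripts of other granulocytic lineages. Of 6 eosinophil markers 4 were analysed, with 22 UMIs in the granulocytes, 15 of them on Ear2, 3 on Ear1, 4 on Siglecf and 0 on Il5ra. Of 5 basophil and mast cell markers 4 were analysed, with 6 UMIs there and 0 on Cpa3, against 25 UMIs in the progenitor/stem cells, 22 of them on Cpa3, a mast cell carboxypeptidase. Cell cycle transcripts (8 genes, among them Mki67 and Top2a) summed to 1356 CPM (1244 to 1474) in the granulocytes and 12185 CPM (11921 to 12453) in the erythroblasts, and correlated at -0.12 with the 6-gene sum across granulocyte wells, or at -0.0030 without the 13 wells with monocyte transcripts.

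Primary granule genes, the earliest wave, were carried almost wholly by 1 well of the granulocyte gate. Mpo, Elane, Prtn3, Ctsg and Ms4a3 summed to 696 CPM (617 to 783) in granulocytes and 580 CPM (529 to 634) in progenitor/stem cells, with a granulocyte well median of 0 and a highest well of 11104 CPM. That well, I13, is 1 of the 13 with monocyte transcripts and held 249 of the 281 UMIs, and the sum was 84.0 CPM (57.4 to 119) without it and 83.4 CPM (54.5 to 122) without all 13. Mpo was at 124 and 231 CPM and Prtn3 at 183 and 310 CPM in these populations, whereas Elane, neutrophil elastase, was at 352 and 20.4 CPM. Without I13 the granulocyte levels were 5.25 CPM (0.636 to 19.0) for Mpo, 28.9 CPM (14.4 to 51.6) for Prtn3 and 36.7 CPM (20.1 to 61.6) for Elane. Against the members, the primary granule list had correlations between -0.09 and 0.18 across granulocyte wells, the highest of them with Mmp25 and its 21 UMIs.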
